A study of Mus musculus with 10 samples.

Results

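The genes described here are 33 genes that are best known from the blood vessel wall, several of them from arteries. They were measured in sorted haematopoietic stem cells (HSCs) from mice with and without an induced Sox17 transgene. They were listed by name, and each gene is represented by the probe set that carries its symbol alone. All 33 had exactly 1 such probe set among the 21789 one-gene probe sets of the array, so no choice between probe sets was needed. The transgenic group was double transgenic for (tetO)7CMVSox17-IRES-NucEGFP, a tetracycline-controlled Sox17 construct that also encodes a nuclear green fluorescent protein, and for the M2 form of the reverse tetracycline activator rtTA at the Rosa26 locus. The control group were littermates labelled wild type, for which the labels do not say whether either transgene alone was carried. Both groups were 8 weeks old and drank doxycycline at 2 mg/ml for 5 days, so the drug itself is shared by both. Each group has 5 Affymetrix Mouse Gene ST arrays, each hybridised with amplified cDNA from an aliquot of 10000 bone marrow cells sorted as CD150+CD48-Lineage-Sca1+cKit+. The labels call the aliquots independent without naming the animals behind them, and p-values here reflect only how far the aliquots differ, a spread that may be technical. The Rosa26 locus is active in most cell types, so the activator is not restricted to HSCs in these animals.

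Endothelial cells line the vessels and are held together by junctions built on VE-cadherin (Cdh5), PECAM1, claudin-5 (Cldn5) and ESAM. They read growth and guidance cues through VEGF receptors (Flt1, Kdr, Flt4) with their neuropilin coreceptors, through the Tie receptors, through endoglin and ALK1 (Acvrl1), and through ephrins, Robo4, Unc5b and peptide receptors. HSCs arise in the embryo from arterial endothelium, where Sox17 is a transcription factor of both the artery and the cells that give rise to blood, and adult HSCs keep several surface proteins of that origin, among them Tie2 (Tek), ESAM, endoglin and endomucin (Emcn). The comparison therefore asks, for genes of this kind, whether induced Sox17 in adult HSCs goes with higher levels and in which of them.

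The Sox17 probe set lay near the bottom of the scale in both groups, with 4.25 to 4.51 log2 units on the transgenic and 4.02 to 4.30 on the wild-type arrays (log2 difference 0.16, SE 0.09, limma adjusted p = 0.855). The labels do not say whether this probe set covers the transcript of the transgene, so the reading does not show whether the transgene was induced, and every direction given rests on the arrays' labels. The arrays also fall into 2 sets that cut across the groups, split by the sign of the leading principal component once group means were subtracted (40.1% of the remaining variance): transgenic arrays 1, 2 and 3 with wild-type arrays 1 and 2 (set A), and transgenic arrays 4 and 5 with wild-type arrays 3, 4 and 5 (set B). The labels do not say what parts the sets. Xist was at 4.32 and the Y-linked Eif2s3y at 9.23 on transgenic array 4, the pattern of a male, against at least 10.8 and at most 2.87 on the other arrays. Of 14 stem cell and gate genes, 12 had bright probe sets. Kit, Slamf1, Procr and the leukocyte antigen Ptprc were among these 12, and so was the progenitor receptor Flt3. Of 11 lineage antigen probe sets, 8 lay near the floor. Cd48, for which the gate was negative, read 6.29 in the transgenic and 4.96 in the wild-type mean (log2 difference 1.34, SE 0.29, limma adjusted p = 0.145).

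On the transgenic arrays 2 of the 33 genes rose and 0 fell. The endothelial surface protein Ecscr rose 3.27-fold and the secreted factor Egfl7 rose 2.32-fold (limma, adjusted over 23410 probe sets, threshold 0.05), in a comparison in which 0.141% of all probe sets passed, 0.12% as higher and 0.0214% as lower. At an unadjusted p under 0.05 there were 9 genes higher and 0 lower, where 6.59% of all probe sets were under 0.05, 3.7% higher and 2.9% lower. In 6 genes (Ecscr, Egfl7, Pecam1, Ptprb, Cldn5 and Cdh5) all 5 transgenic arrays lay above all 5 wild-type arrays, as in 0.876% of all probe sets, and in 0 genes did they lie below (0.594%; 1.47% in either direction). Differences were positive in 22 genes and negative in 11, with a median of 0.18 log2 units, against -0.01 over all tested probe sets, of which 46.3% were positive. The median size of the difference, sign aside, was 0.18 in these genes and 0.09 over all probe sets, while the median SD within a group was 0.20 and 0.19.

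**Figure D1:**
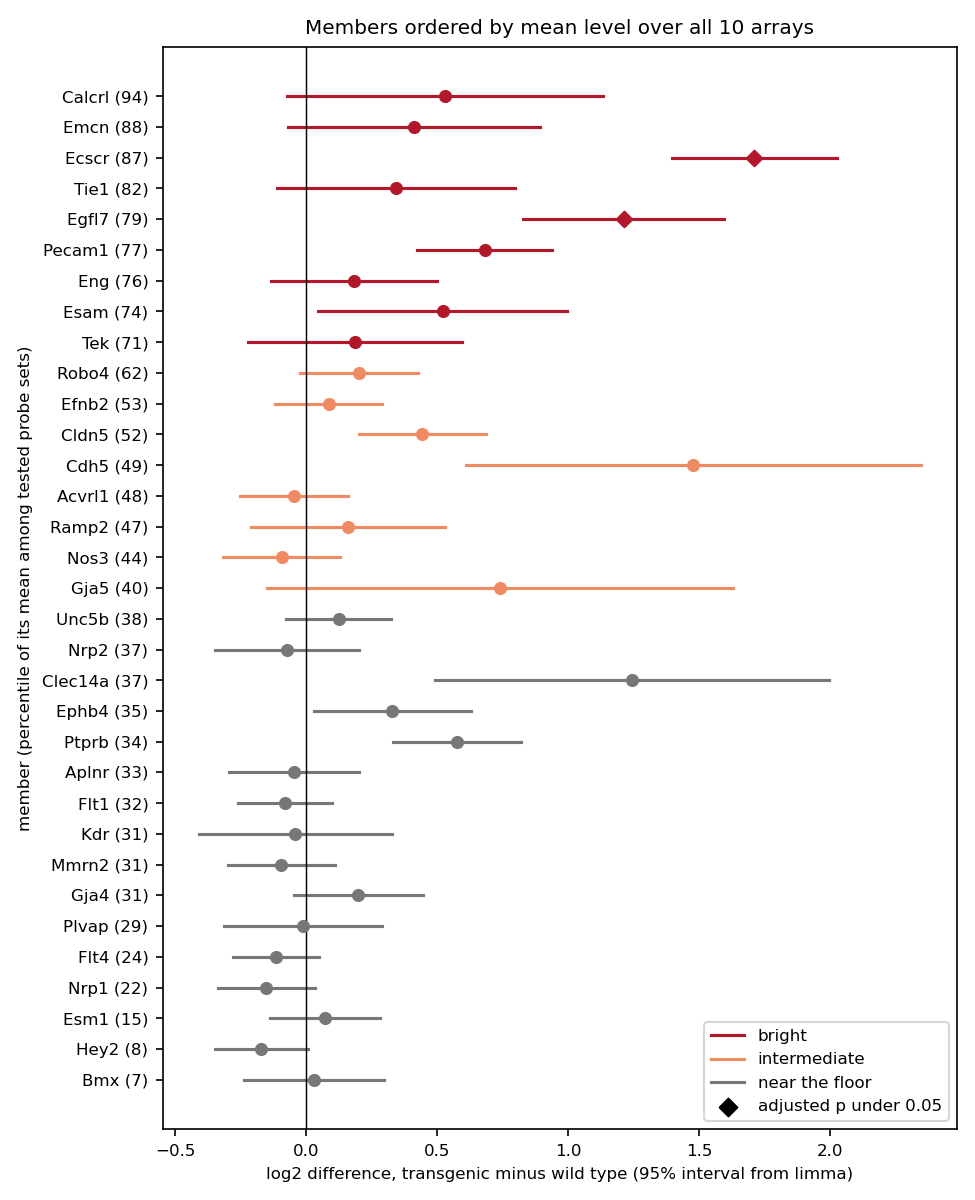
Log2 difference, transgenic minus wild type, with its 95% interval from limma (x axis) for the 33 genes, ordered by mean level over all 10 arrays (y axis, percentile in brackets), coloured by brightness tier and with diamonds for an adjusted p under 0.05. All 9 bright genes have positive differences, and the genes near the floor lie around 0 apart from Clec14a, Ptprb and Ephb4.

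The share of positive differences was 9 of 9 in bright, 6 of 8 in intermediate and 7 of 16 in dim probe sets. Tiers were set by the percentile of a probe set's mean over all 10 arrays among the tested probe sets: near the floor below the 40th percentile (means up to 5.26 log2 units), bright from the 70th (means from 6.98), intermediate between. Among the 9 bright genes, Calcrl, Emcn, Ecscr, Tie1, Egfl7, Pecam1, Eng, Esam and Tek, all 9 differences were positive with a median of 0.52, where 50.9% of the 7024 bright probe sets of the array were positive with a median of 0.00. Both called genes are among these 9, and 0.313% of all bright probe sets were called. The 8 intermediate genes were positive in 6 cases, with a median of 0.18, where 45.4% of that tier were positive. The 16 genes near the floor were positive in 7 cases, where 43.4% of the 9363 probe sets of that tier were. Their median was -0.03, against -0.02 over that tier. At an unadjusted limma p under 0.05 were 4 bright, 2 intermediate and 3 dim genes, each of them higher. Of all probe sets in these tiers, 8.93%, 8.5% and 3.41% were under 0.05 in either direction. Values near the floor are compressed by the array's background, so a change of a gene there may not show. Placed by the wild-type mean alone, Cdh5 and Gja5 moved from the intermediate tier to the floor, and the 9 bright genes stayed the same. Tek, Egfl7 and Esam then lay just over the limit, at percentiles 70.13, 70.15 and 70.28. Of all probe sets bright by the wild-type mean, 48.6% were positive and 0.214% were called.

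The surface glycoproteins and matrix proteins held both genes that rose. Ecscr, a transmembrane protein of endothelial cells that acts in their migration and apoptosis, read 9.06, 9.65, 9.31, 8.82 and 9.04 log2 units on transgenic arrays 1 to 5 and 7.59, 7.61, 7.44, 7.29 and 7.40 on wild-type arrays 1 to 5. The lowest transgenic array lay above the highest wild-type array by more than the whole range of either group. It rose from 7.46 ± 0.13 to 9.18 ± 0.32 (SD, n = 5 each), a log2 difference of 1.71 (SE 0.14, limma adjusted p = 0.000889). Taken within each set, the difference was 1.74 (A) and 1.55 (B) (adjusted p = 0.0633 and 0.0443 on 5 arrays each).

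Egfl7 encodes a secreted protein of developing vessels that is also made by HSCs. It read 8.00, 8.17, 8.17, 8.46 and 8.23 on the transgenic arrays and 6.41, 6.95, 6.88, 7.48 and 7.23 on the wild-type arrays. The transgenic arrays were close together, and the wild-type arrays were spread more widely, with array 1 lowest. Egfl7 rose from 6.99 ± 0.40 to 8.20 ± 0.17 (SD, n = 5 each; log2 difference 1.21, SE 0.17, limma adjusted p = 0.0260). The call was lost without transgenic array 3 (adjusted p = 0.0730), 4 (0.0761) or 5 (0.0538) or wild-type array 2 (0.0813), 3 (0.0766) or 5 (0.0543), with log2 differences of 1.07 to 1.33 over all such omissions. The set A arrays gave 1.43 and the set B arrays 1.15.

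An intron of Egfl7 holds the microRNA gene Mir126a, whose mature product is abundant in endothelium and in HSCs. Its 3' arm is printed here from RefSeq (GRCm38.p6, chr2:26591402-26591423, plus strand) because host and microRNA share a primary transcript, with the seed, bases 2 to 8, in capitals.
mmu-miR-126a-3p: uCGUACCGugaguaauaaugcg
The array has a probe set for the Mir126a hairpin, which read 2.53 to 2.82 on the transgenic and 2.63 to 2.91 on the wild-type arrays (log2 difference -0.09, SE 0.08, limma adjusted p = 0.943). Its mean ranks at percentile 1.17 among tested probe sets, near the lowest values on the array, so this probe set gave no measure of the mature microRNA.

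Clec14a, a C-type lectin of endothelial cell contacts, read 6.32, 5.80, 6.34, 4.93 and 5.03 on the transgenic arrays and 4.20, 4.99, 4.29, 5.03 and 3.69 on the wild-type arrays. The 3 transgenic arrays of set A lay above every wild-type array, and the 2 of set B lay within the wild-type range. The difference of 1.24 log2 units (SE 0.34, 95% interval 0.49 to 2.00) did not pass (limma adjusted p = 0.329), with 1.56 from the arrays of set A and 0.64 from those of set B. Emcn, a sialomucin of veins and capillaries and a marker of HSCs, read 8.75, 8.84, 8.61, 8.91 and 7.94 against 7.70, 8.34, 8.79, 8.08 and 8.08, a difference of 0.41 (SE 0.22, adjusted p = 0.832) with overlapping groups. The caveola and fenestra protein Plvap, the Clec14a ligand Mmrn2 and the proteoglycan Esm1, a product of tip cells, lay near the floor with group means of 3.76 to 4.80. Their differences were -0.01, -0.09 and 0.07.

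Among the junction and adhesion genes, Pecam1 came nearest to the threshold. PECAM1 is an adhesion molecule of endothelium, platelets and leukocytes. It read 7.72, 7.70, 8.18, 7.97 and 7.53 on the transgenic arrays and 7.23, 7.15, 7.19, 7.09 and 7.03 on the wild-type arrays, with no overlap and a narrow wild-type group. The means were 7.82 ± 0.26 and 7.14 ± 0.08 (SD, n = 5 each; log2 difference 0.68, SE 0.12, limma adjusted p = 0.0591). It passed in 3 of 21 alternative limma fits: blocked on array set (adjusted p = 0.0469), with only the brighter probe sets (0.0463) and without transgenic array 5 (0.0391). In the others it did not pass, with an adjusted p of 0.104 under the trended, robust eBayes and 0.164 without wild-type array 4. The differences within sets A and B were 0.67 and 0.65, with the highest adjusted p of all these fits in set B (limma adjusted p = 0.410 and 0.502 on 5 arrays each).

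Cdh5 encodes VE-cadherin, the adhesion molecule of the endothelial adherens junction. It read 7.38, 5.86, 7.70, 5.58 and 5.85 on the transgenic arrays and 4.58, 4.90, 4.94, 5.36 and 5.19 on the wild-type arrays. Transgenic arrays 1 and 3 stood well above the other transgenic arrays, which themselves lay above every wild-type array. The difference was 1.48 (SE 0.40, 95% interval 0.61 to 2.35, limma adjusted p = 0.305), with 2.24 in set A and 0.55 in set B.

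Ptprb, the vascular phosphatase VE-PTP that acts on VE-cadherin and Tie2, read 5.03, 5.42, 5.50, 5.00 and 5.22 against 4.66, 4.75, 4.49, 4.73 and 4.65. These groups did not overlap, although the probe set lies near the floor. The difference was 0.58 (SE 0.11, limma adjusted p = 0.0986), and 0.61 and 0.48 in sets A and B. Cldn5, the claudin of endothelial tight junctions, read 6.02, 5.87, 6.38, 6.22 and 6.08 against 5.80, 5.84, 5.53, 5.64 and 5.52. The lowest transgenic value exceeded the highest wild-type value by only 0.03 log2 units, and the difference was 0.44 (SE 0.11, adjusted p = 0.231), 0.26 in set A and 0.59 in set B.

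Esam, an immunoglobulin-like adhesion molecule of endothelium, platelets and HSCs, read 7.47, 7.34, 7.47, 7.77 and 7.56 on the transgenic arrays and 6.31, 6.62, 7.42, 7.10 and 7.55 on the wild-type arrays. The transgenic arrays were nearly level, while the wild-type arrays of set A were lower than those of set B. The difference of 0.52 (SE 0.22, limma adjusted p = 0.695) split into 0.96 (set A) and 0.31 (set B). The connexins of arterial gap junctions were dimmer. Gja5 (connexin 40) read 5.57, 5.18, 7.40, 5.22 and 4.89 against 4.86, 4.86, 4.44, 5.21 and 5.18, for a difference of 0.74 (SE 0.40, adjusted p = 0.841), or 0.30 without transgenic array 3. Gja4 (connexin 37) differed by 0.20 (SE 0.11, adjusted p = 0.855).

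**Figure D2:**
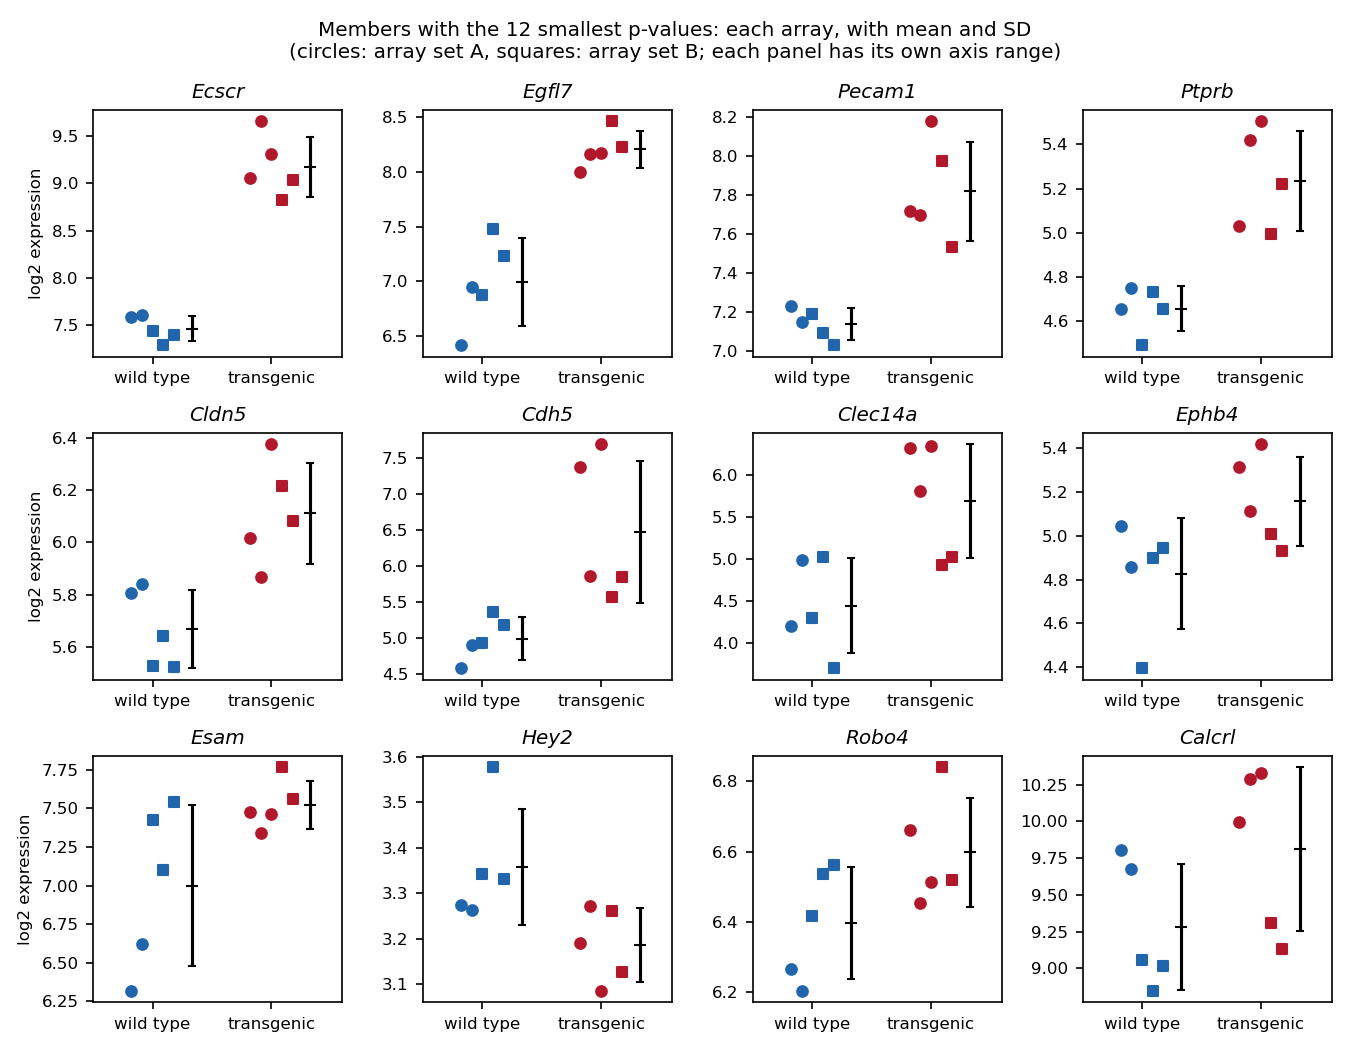
Log2 expression (y axis) on each array for the 12 genes with the smallest p-values, wild type in blue and transgenic in red, circles for array set A and squares for set B, with the group mean and SD beside the points (n = 5 each). For Ecscr, Egfl7, Pecam1, Ptprb, Cldn5 and Cdh5 all transgenic points lie above all wild-type points. Cdh5 and Clec14a are highest on transgenic arrays 1 and 3, and Calcrl is higher in set A than in set B in both groups.

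The VEGF receptor family was near the floor in both groups and showed no call. Kdr (VEGFR2), the main signalling receptor of endothelium, read 5.22, 4.81, 4.88, 4.46 and 4.32 on the transgenic and 4.62, 4.77, 4.80, 4.60 and 5.12 on the wild-type arrays, fully overlapping (difference -0.04, 95% interval -0.41 to 0.33, limma adjusted p = 0.994). Flt1 (VEGFR1), which binds VEGF-A as a decoy, read 4.93, 4.70, 4.63, 4.79 and 4.65 against 4.78, 4.79, 4.74, 4.83 and 4.97 (difference -0.08, interval -0.26 to 0.10). Flt4 (VEGFR3), the receptor of lymphatic endothelium, read 4.18, 4.41, 4.24, 4.17 and 4.27 against 4.36, 4.45, 4.28, 4.29 and 4.45 (difference -0.11, interval -0.28 to 0.05). The neuropilins Nrp1 and Nrp2, coreceptors for VEGF and semaphorins, differed by -0.15 (SE 0.08) and -0.07 (SE 0.12). All 5 differences were thus negative and small, on probe sets at the 22.1 to 36.9 percentile, and the Kdr difference had opposite signs in sets A (0.28) and B (-0.45).

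The Tie receptors bind, or in the case of Tie1 modulate, angiopoietin signals that hold vessels and HSCs in a quiet state. Tie1 read 7.75, 7.80, 7.91, 8.11 and 8.53 on the transgenic and 7.26, 7.20, 8.10, 7.91 and 7.92 on the wild-type arrays. The wild-type arrays of set A were lowest and the groups otherwise overlapped; the difference was 0.34 (SE 0.21, limma adjusted p = 0.888), 0.22 without transgenic array 5, and 0.47 when blocked on array set (adjusted p = 0.0999). Tek (Tie2) read 7.11, 7.33, 7.35, 7.45 and 6.63 against 7.24, 7.13, 6.77, 7.28 and 6.52, a difference of 0.19 (SE 0.19, 95% interval -0.22 to 0.59) with full overlap, which was 0.07 without wild-type array 5 and 0.32 without transgenic array 5. Bmx, a TEC-family kinase of arterial endothelium, lay at the 7.43 percentile and differed by 0.03. Endoglin, Eng, a coreceptor for BMP and TGF-beta, read 7.66, 7.29, 7.60, 7.50 and 7.14 against 7.48, 7.59, 6.94, 7.13 and 7.14, with overlapping groups (difference 0.18, SE 0.14, adjusted p = 0.928). Its partner receptor Acvrl1 had group means of 5.68 and 5.73 (difference -0.05, SE 0.09).

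Ephrin-B2 marks arteries and its receptor EphB4 marks veins. Efnb2 read 6.02, 5.90, 6.11, 5.99 and 6.07 on the transgenic and 5.66, 5.94, 6.05, 5.91 and 6.10 on the wild-type arrays (difference 0.09, SE 0.09, limma adjusted p = 0.952). Ephb4 read 5.32, 5.11, 5.42, 5.01 and 4.93 against 5.05, 4.86, 4.40, 4.90 and 4.94, with wild-type array 3 lowest and overlapping groups (difference 0.33, SE 0.14, adjusted p = 0.695). Both pairs of groups overlapped, and the difference between the genes was not tested.

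The remaining receptors were not called either. Calcrl, which with the accessory protein Ramp2 forms the adrenomedullin receptor, had the brightest probe set of these genes, with 10.00, 10.29, 10.33, 9.31 and 9.13 on the transgenic and 9.81, 9.68, 9.06, 8.84 and 9.02 on the wild-type arrays. In both groups the arrays of set A read higher than those of set B, and the difference between groups was 0.53 (SE 0.27, limma adjusted p = 0.821), 0.46 in set A and 0.25 in set B. Ramp2 differed by 0.16 (SE 0.17), with 4.93 on wild-type array 1 and 5.49 to 6.02 on the others. The Slit receptor family member Robo4, found in endothelium and HSCs, had group means of 6.60 and 6.40 (difference 0.20, SE 0.10, adjusted p = 0.812), the netrin receptor Unc5b differed by 0.12, and the apelin receptor Aplnr by -0.05. The endothelial nitric oxide synthase Nos3 (5.43 and 5.53 in group means) and the arterial Notch effector Hey2 (3.19 and 3.36) differed by -0.09 and -0.17, with adjusted p of 0.953 and 0.782.

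**Figure D3:**
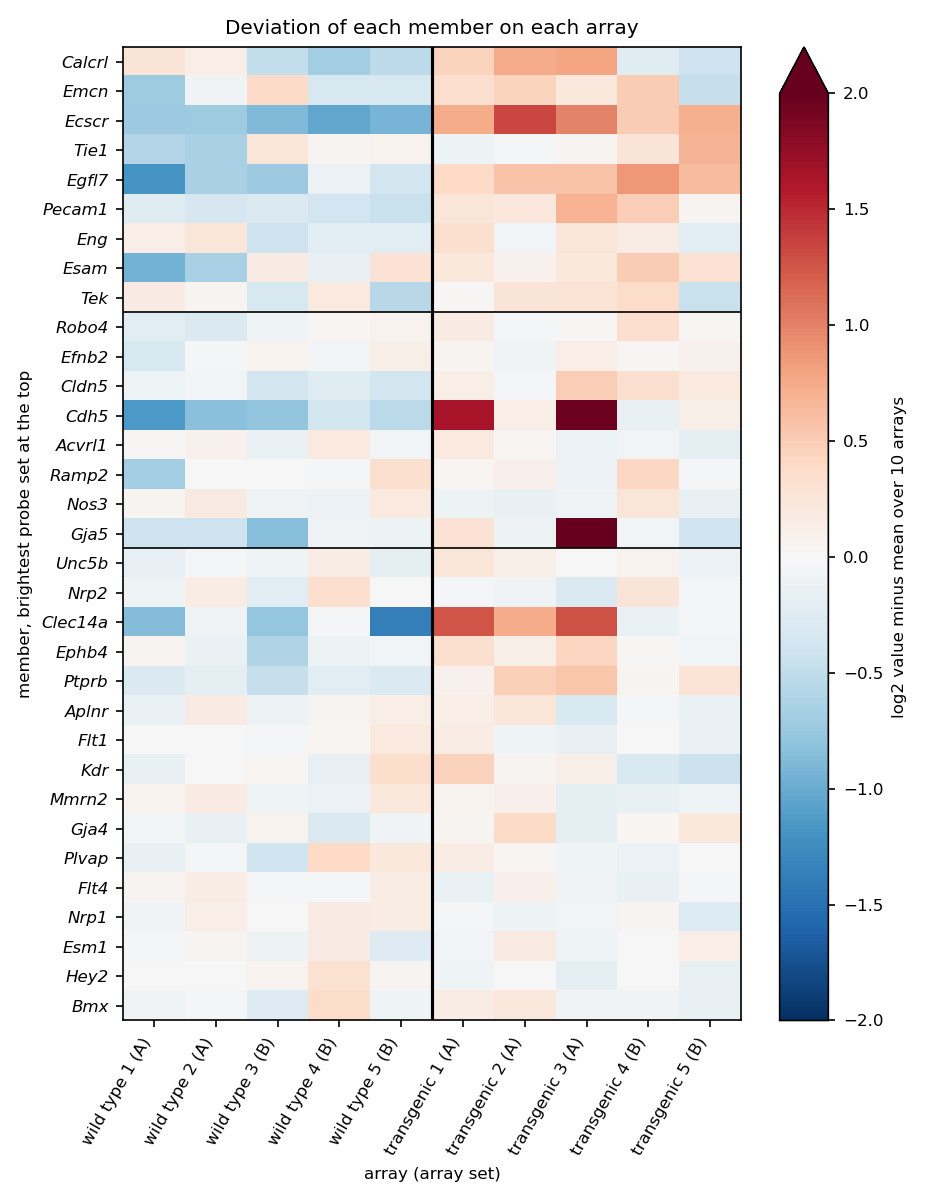
Log2 value minus the gene's mean over all 10 arrays (colour, limited to 2 log2 units either way) for each gene (y axis, brightest probe set at the top, lines between brightness tiers) on each array (x axis, array set in brackets). The bright genes are mostly red on the transgenic arrays, and the largest single deviations are Cdh5 and Gja5 on transgenic array 3.

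Across arrays, the mean deviation of the 33 genes from their own means was 0.24, 0.18, 0.28, 0.12 and -0.02 log2 units on transgenic arrays 1 to 5 and -0.26, -0.11, -0.23, -0.07 and -0.13 on wild-type arrays 1 to 5. All 5 transgenic values thus lay above the wild-type values, with array 5 closest. For the 9 bright genes the deviations were 0.29, 0.39, 0.45, 0.38 and 0.09 against -0.43, -0.29, -0.26, -0.30 and -0.33. For the 16 genes near the floor they were 0.17, 0.16, 0.04, -0.03 and -0.07 against -0.12, 0.01, -0.19, 0.06 and -0.05, and the groups overlapped. Transgenic array 3 was the highest of the 10 arrays for 9 genes and also the lowest for 5. Transgenic array 4, the male array, was the highest for 7 genes, and the count of called genes without it was 1, Ecscr.

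The array sets gave the same sign for 26 of the 33 genes. In set A 24 differences were positive and in set B 23, although each set holds only 5 arrays. Differences were similar in both sets for Ecscr, Egfl7, Pecam1 and Ptprb, with values given above. They were larger in set A for Cdh5, Clec14a, Gja5 (1.19 and 0.11), Emcn (0.71 and 0.11) and Esam. The 7 genes whose sign differed were Kdr, Nrp2, Bmx, Eng, Aplnr, Plvap and Nos3, none of which exceeded 0.45 in size in either set. Blocked on array set, 3 genes passed, Ecscr (adjusted p = 0.000145), Egfl7 (0.00473) and Pecam1 (0.0469), where 0.389% of all probe sets did so. Since the sets were found from these same values, the block lowers the residual spread by construction.

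**Figure D4:**
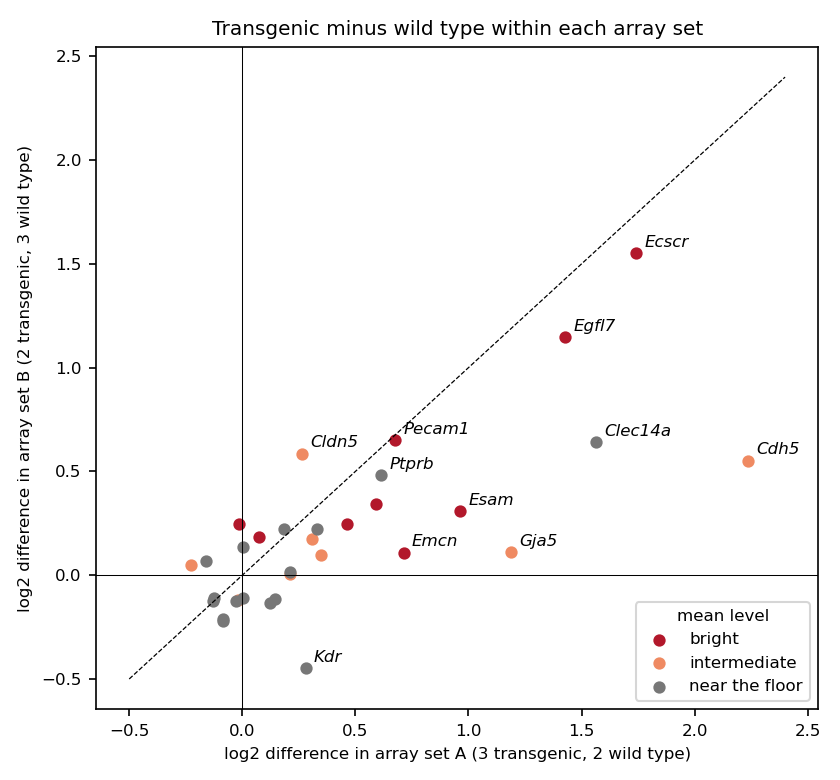
Log2 difference, transgenic minus wild type, within array set A (x axis, 3 transgenic and 2 wild-type arrays) and within array set B (y axis, 2 and 3 arrays), 1 point a gene, coloured by brightness tier; the dashed line marks equal values. Ecscr, Egfl7 and Pecam1 lie close to the line, while Cdh5, Gja5 and Clec14a lie well below it.

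RefSeq promoter windows, 250 bases before to 50 after each gene start (GRCm38.p6), were found for 22 of the 33 genes, with 3 starts for Egfl7 and 1 for each of the others. The other 11 had no window and were not searched. They were Ecscr, which was called, and Pecam1, Ptprb, Cdh5, Esam, Acvrl1, Aplnr, Ramp2, Plvap, Mmrn2 and Nos3. The windows found were searched on both strands for 4 motifs, none of which contains another. The core bound by SOX factors, ACAAT, was present for 8 of the 22 genes (Bmx, Calcrl, Clec14a, Emcn, Gja4, Robo4, Tek and Unc5b), and in 31.0% of all 32851 windows. A combined forkhead and ETS element known from endothelial enhancers, with the letters AACAGGAA, was present for 3 genes, Egfl7, Calcrl and Emcn, and in 2.65% of all windows. The plain ETS core CCGGAA was present for Kdr and Unc5b and in 14.9% of all windows. The GATA site, searched as AGATAA, was present for Tek and in 11.2% of all windows. These genes are counted by gene, and the shares of all windows by window. By window, of the 24 of these genes, 8 held the SOX core, 3 the combined element, 2 the ETS core and 1 the GATA site. A match is a run of letters and was not shown to be a bound site. The 250 bases before the start are given for the 3 genes with the combined element, of which only Egfl7 passed the test, with the matches in capitals (the reverse strand match in Emcn reads TTCCTGTT).
Egfl7 (chr2:26580833-26581082, plus strand): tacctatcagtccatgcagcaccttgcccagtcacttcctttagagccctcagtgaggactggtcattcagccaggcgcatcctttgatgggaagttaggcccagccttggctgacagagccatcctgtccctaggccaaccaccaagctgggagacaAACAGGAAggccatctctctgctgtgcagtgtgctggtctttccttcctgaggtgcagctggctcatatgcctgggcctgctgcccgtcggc
Calcrl (chr2:84425267-84425516, minus strand): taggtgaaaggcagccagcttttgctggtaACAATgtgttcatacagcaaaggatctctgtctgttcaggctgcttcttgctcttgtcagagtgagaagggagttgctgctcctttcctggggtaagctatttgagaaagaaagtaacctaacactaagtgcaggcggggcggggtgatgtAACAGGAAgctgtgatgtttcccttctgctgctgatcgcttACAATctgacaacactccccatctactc
Emcn (chr3:137340828-137341077, plus strand): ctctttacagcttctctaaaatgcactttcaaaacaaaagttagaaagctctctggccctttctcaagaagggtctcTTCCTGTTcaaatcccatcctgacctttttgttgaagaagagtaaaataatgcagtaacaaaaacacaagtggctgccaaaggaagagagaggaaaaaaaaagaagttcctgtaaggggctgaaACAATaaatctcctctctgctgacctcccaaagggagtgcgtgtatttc
Counted from the gene start, the element begins at position -92 of the first of the 3 Egfl7 starts, and none of its windows holds the letters of the SOX core. In Calcrl it begins at -69, between SOX cores at -220 and -28. In Emcn it begins at -173, with a SOX core at -49.

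The wider vascular programme showed no call beyond these genes, by lists chosen with earlier results of these data known. Of 24 endothelial transcription factors 0 passed, 2 were higher and 2 lower at an unadjusted p under 0.05, and the median difference was -0.02. Over all probe sets 3.7% were higher and 2.9% lower at that unadjusted level. The ETS factors Erg (group means 9.73 and 9.64) and Fli1 (9.58 and 9.27) are bright and differed by 0.09 and 0.30, the ETS repressor Elk3 by 0.24 (SE 0.08) and the hypoxia factor Epas1 by 0.35 (SE 0.12). The haematopoietic and endothelial factors Tal1 and Lmo2 differed by -0.22 (SE 0.08) and -0.30 (SE 0.11), and the SoxF relatives of Sox17, Sox7 and Sox18, by -0.17 and -0.25; limma adjusted p was 0.426 to 0.928 for these last 6 genes. Of 29 measured ligands and coreceptors 0 passed, with a median of -0.03 (2 higher and 2 lower unadjusted). The Tie2 ligand Angpt1, which HSCs make themselves, differed by -0.40 (SE 0.12, adjusted p = 0.412), Vegfa by 0.43 (SE 0.14, adjusted p = 0.470) and Notch1 by 0.23 (SE 0.10, adjusted p = 0.695).

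Junction partners of the adhesion genes were positive in 15 of 18 cases, where 46.3% of all probe sets were, with a median of 0.15 and 0 past the threshold. The scaffold Tjp1 (ZO-1), which links tight and adherens junctions to actin, came nearest. It read 6.53, 6.07, 6.80, 7.38 and 5.63 on the transgenic and 4.60, 4.84, 4.83, 5.10 and 4.86 on the wild-type arrays, without overlap (log2 difference 1.64, SE 0.27, limma adjusted p = 0.0515). Blocked on the array set the limma adjusted p was 0.0359, but the sets were found from these same values, which lowers the residual spread by construction. Beta-catenin (Ctnnb1) differed by 0.22 (SE 0.10) and the GTPase Rap1b by -0.34 (SE 0.14), with adjusted p of 0.744 and 0.680.

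Markers of other cells were measured beside these genes. In bulk RNA, more cells of a type and more RNA per cell cannot be told apart. Of 17 further endothelial markers, mostly of veins, sinusoids and lymphatics, 0 passed and 7 were positive, with a median of -0.02, where 46.3% of all probe sets were positive. Sox17 itself is counted among the 17 and among the 7. The mean level of the 17 was 5.38 to 5.53 log2 units on the transgenic and 5.34 to 5.44 on the wild-type arrays. Of the 17, 11 lay near the floor. Stab1, Lyve1, Prox1, Nr2f2, Sele and Ackr1, named here after their values were seen, were among these 11, with differences of -0.02 to 0.04. At an unadjusted limma p under 0.05, 1 of the 17 was higher and 2 were lower, where 3.7% of all probe sets were higher and 2.9% lower. Von Willebrand factor, Vwf, made by endothelium, megakaryocytes and some HSCs, had the largest difference of the list. It read 8.36, 7.74, 8.77, 7.69 and 7.44 against 6.79, 7.25, 6.63, 6.39 and 6.55 (log2 difference 1.28, SE 0.25, limma adjusted p = 0.110). Blocked on the array set the limma adjusted p was 0.0256, but that block lowers the residual spread by construction. Thrombomodulin (Thbd) and aquaporin-1 (Aqp1) differed by -0.43 and -0.41.

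Stem cell and progenitor genes also differed in places without a call. Procr, the endothelial protein C receptor and a marker of HSCs, had group means of 9.21 and 8.12 (log2 difference 1.08, SE 0.27, limma adjusted p = 0.247), and the progenitor receptor Flt3 8.59 and 7.06 (1.53, SE 0.32, adjusted p = 0.132). Of the 14 stem cell and gate genes 0 passed, 9 had positive differences with a median of 0.19, and at an unadjusted p under 0.05 there were 5 higher (Procr, Mecom, Fgd5, Flt3 and Cd48) and 1 lower, the receptor Kit (-0.47, SE 0.12, adjusted p = 0.248). Over all probe sets 46.3% were positive, and 3.7% were higher and 2.9% lower at that unadjusted level. The 14 genes had a mean level of 8.37 to 8.62 on the transgenic and 8.03 to 8.39 on the wild-type arrays.

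Megakaryocyte and platelet genes, which share Pecam1 and Esam with endothelium, were mostly lower on the transgenic arrays. Of 11 measured, 1 fell past the threshold (the chemokine Pf4, log2 difference -2.53, limma adjusted p = 0.0112), 10 had negative differences (6 at an unadjusted p under 0.05), the integrin Itgb3 had a positive one (0.60, unadjusted p = 0.0221) and the list's mean level was 6.12 to 6.44 on the transgenic against 6.60 to 7.01 on the wild-type arrays. Over all probe sets 0.0214% were called lower and 46.3% had positive differences. At an unadjusted limma p under 0.05, 2.9% of all probe sets were lower and 3.7% higher. Of 14 monocyte and granulocyte genes, which share Pecam1, 0 passed and 11 were positive, with a mean level of 5.25 to 6.26 against 5.08 to 5.37, highest on transgenic array 5. The 12 stromal and mural genes had a mean level of 4.34 to 4.49 against 4.34 to 4.57, with 9 near the floor, and the 7 plasmacytoid dendritic cell genes 5.76 to 5.97 against 5.71 to 5.90. The part of these cells in the differences above was not tested.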

How the data were processed

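Expression was measured on 10 arrays, 5 a group, grouped by the sample titles. The authors deposited 1 table of log2 values with 35556 probe sets, made with robust multi-array average (RMA) per the submitters' processing notes, which also name affy and limma; for versions, settings and build, none is given in the sources used here. RMA gives the probe intensities of all arrays 1 distribution and compresses low values. The medians of the deposited probe set values still differed, with 5.53 to 5.56 on the arrays of set A and 5.45 to 5.51 on those of set B. The number of arrays limits the precision. Probe sets were named through the platform annotation: 21789 had 1 symbol, 1621 several, and 12146 are unnamed here. The 23410 named probe sets were fitted with limma 3.58.1 in R 4.3.3 (lmFit, eBayes, two-sided, Benjamini-Hochberg, threshold 0.05) with no further normalization or filter, and the fit was tested on simulated data. The genes and lists were chosen with earlier results of these data known. Per-array values are given for genes past the threshold with or without the array set as a block. They are also given for genes with no overlap, with an unadjusted limma p under 0.05, or with the brightest probe sets. The Tie and VEGF receptors, Efnb2 and Ephb4 are given in the same way, as is Gja5, which meets none of these rules. From other lists, up to 3 genes with the smallest p are named, and a few more of known role chosen after their values were seen. Alternatives covered blocking, normalization, filters, a floor, variance models, array weights, a threshold of 0.01 and each array left out.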

Additional observations from a re-analysis of the deposited data

Results flagged for a closer look

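In 66 groups of 5 arrays, 2 for each gene, 4 held an array whose gap to its nearest neighbour was a large share of the group's range, where chance flags about 1 in 20. Gja5 read 7.40 on transgenic array 3, against 4.89 to 5.57 on the other transgenic arrays. Ephb4 read 4.40 on wild-type array 3, against 4.86 to 5.05 on the other wild-type arrays. Nos3 read 5.72 on transgenic array 4, against 5.33 to 5.40 on the others of its group. Hey2 read 3.58 on wild-type array 4, against 3.26 to 3.34 on the others.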

How the results depend on the processing

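The count of called genes was 2, and Ecscr and Egfl7 were those 2 under quantile normalization, median centring, a trended, robust eBayes, and array weights. It was 1 at a threshold of 0.01, 1 with all probe sets tested, 1 with a floor at the 20th percentile, 0 in set A alone and 1 in set B alone, both with fewer arrays, and 3, with Pecam1 added, when blocked on array set or with only the brighter probe sets; over the omissions of 1 array it was 1 to 2. The count of all probe sets called, 33, was 7 at the threshold of 0.01, 91 when blocked on array set, 4 in set A, 6 in set B, 15 with all probe sets, 8 with the floor, and 15 to 71 over the omissions of 1 array: 71 without transgenic array 2, 19 without 3 and 15 without 4, and 20, 18, 16, 17 and 17 without wild-type arrays 1 to 5. Deviations of same-numbered arrays correlated at over 0.1 in 4 of 5 pairs and at -0.14 in the other, and 1 of 10 arrays correlated best with its own number, so the numbers were not taken as pairs. The replicate number as a block left both counts at 2 and 33 and changed no call of these genes. The median difference of 0.18 was 0.43 among the 12 genes brighter than the median probe set, which are fewer genes by construction. Signs changed only in small, uncalled differences: in set A Kdr (0.28), Eng (-0.016), Aplnr (0.0039) and Plvap (0.12), in set B Nrp2 (0.067), Bmx (-0.12) and Nos3 (0.047), and with array weights Plvap (0.0040). Leaving out 1 array gave -0.16 to 0.063 for Kdr, -0.032 to 0.13 for Bmx, -0.11 to 0.027 for Aplnr, -0.15 to 0.0043 for Nrp2 and -0.11 to 0.084 for Plvap. In 18 of the 33 genes, all uncalled, leaving out 1 array moved the difference by over 1.5 times or turned its sign. The 2 called genes were bright under either other way of setting tiers. Each gene has 1 probe set, so a mean over probe sets gives no other value, and Hey2 and Bmx, with every value under the floor, have none there. Where not stated, the cause was not tested.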
